A study of Mus musculus with 2 samples.

Results

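The 38 genes described here encode the insulin and IGF signalling chain: Igf1, the insulin and IGF1 receptors, the Irs adaptors, PI3K, Pdk1 and Akt, the TSC complex and Rheb, the mTOR complexes, their main targets, and 6 IGF binding proteins. They were chosen by name, with earlier results of these data known, and all 38 were found among the 55536 annotated genes of the gene tables. Total RNA came from the gastrocnemius, the large fast calf muscle, of adult male mice aged 8 to 10 months that are labelled 5xFAD/CAST and described as a cross of the 2 strains. 5xFAD is a line with mutant human transgenes, APP among them, driven by a neuronal promoter, that is used as a model of amyloid deposition; CAST is a strain of wild castaneus origin. The series held a single group of 2 libraries, labelled biological replicates 1 and 2, from separate biosamples under 1 donor entry; whether they are separate animals is not given, so the spread between them may be technical. No control genotype, treatment or second tissue was part of it, so levels are described and no comparison between conditions can be made.

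In this pathway insulin or IGF1 binds a receptor tyrosine kinase, Irs adaptors recruit PI3K, and the lipid it makes brings Pdk1 and Akt to the membrane. Akt restrains Gsk3, the Foxo factors, the TSC complex and the Rab GTPase activators Tbc1d1 and Tbc1d4, and through Rheb it releases mTOR complex 1, which acts on S6 kinases and on the 4E-BP repressors of cap-dependent translation. In skeletal muscle the pathway is known for insulin-stimulated glucose uptake, glycogen synthesis and the control of fibre mass, and much of that control is on protein phosphorylation, which RNA levels do not measure.

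The gene tables summed to 35350142 and 35580757 expected counts. Fibre genes such as Acta1 and Ckm identified the tissue, with 82381 and 79709 TPM summed over the 6 listed. TPM, the deposited length-scaled abundance in which each library sums to the same total, is the unit for every level below, in the order replicate 1, replicate 2; mean ± SD is over n = 2 libraries. Every marker list summed lower in replicate 2. Endothelial markers summed to 75.1 and 55.2 TPM, adipocyte markers to 215 and 155 TPM, and smooth muscle and pericyte markers to 211 and 174 TPM. Erythroid markers summed to 370 and 300 TPM and fibroblast markers to 546 and 526 TPM. Single markers differed: in the adipocyte list Fabp4 was at 125.75 and 87.45 TPM but Cfd at 27.74 and 30.0 TPM. Cldn5 of the endothelial list was at 2.32 and 2.38 TPM. In bulk tissue, fewer cells of a type and less RNA per cell cannot be told apart. TPM values sat lower in replicate 2 across the transcriptome, with a median log2 ratio of -0.13 over all genes tested, so the lower value in replicate 2 for 29 of the 38 genes is not described as a change.

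The chain was expressed from end to end. Of the 38 genes, 37 reached 1 TPM in both libraries, where 10068 of 22015 nuclear protein-coding genes did. The exception was Igfbp2. The median gene of the chain stood at 17.0 and 15.3 TPM (16.2 ± 1.2), against 8.48 and 7.66 TPM for the 10068 protein-coding genes that reached 1 TPM in both, and 28 of the 38 lay above that median. Together they took 902 and 833 TPM, or 0.264% and 0.253% of the counts of annotated genes. The highest levels belonged to a binding protein (Igfbp5), the cap-binding step (Eif4ebp2, Eif4e), Akt2 and Foxo4, whereas the ligand Igf1, the IGF1 receptor, Mlst8, Rictor and Foxo1 were all under 5 TPM in both gene tables. Of the 37 neighbouring pairs in the order by mean TPM, 21 overlapped between libraries and 28 overlapped once both quantifications were counted, so most adjacent ranks are not separable.

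**Figure D1:**
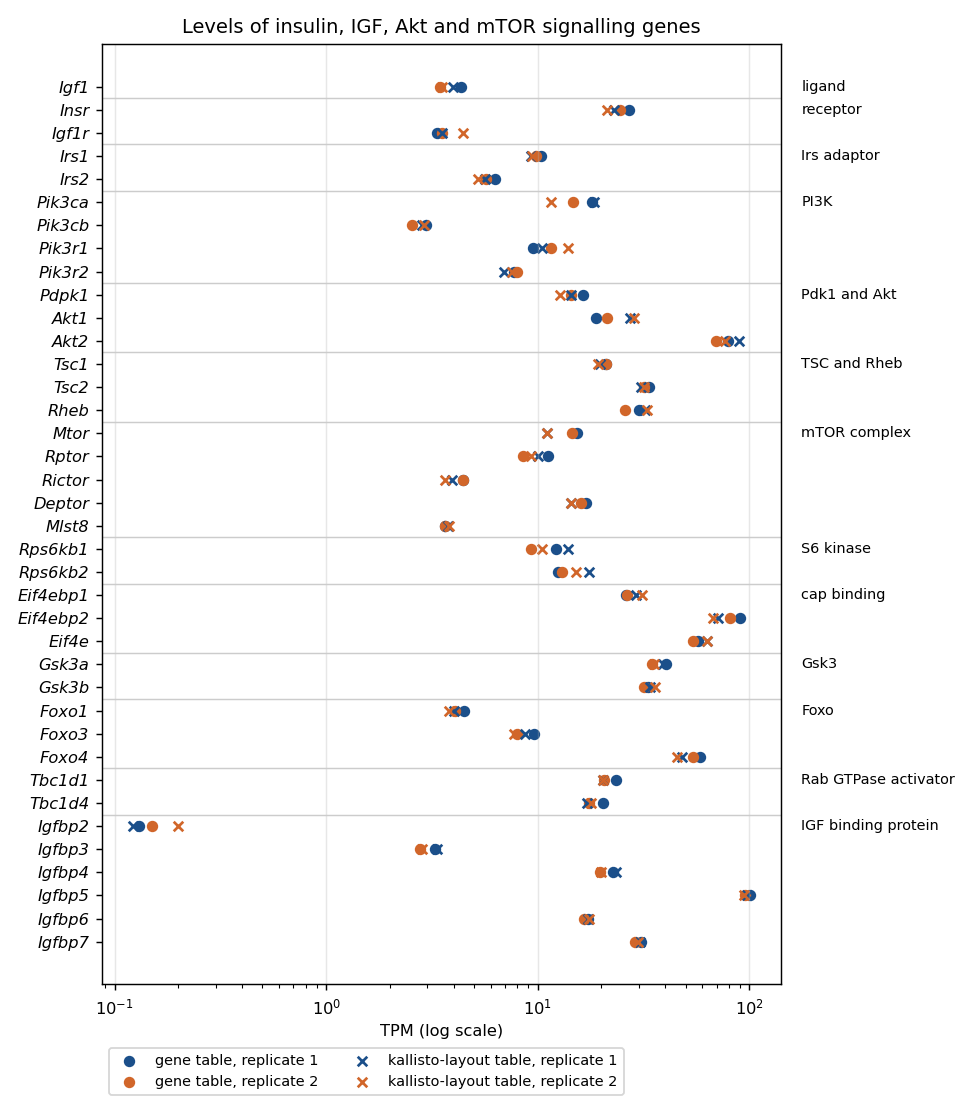
TPM of the 38 genes on a log scale, grouped by step of the pathway; filled circles are the gene tables and crosses the kallisto-layout tables, with replicate 1 in blue and replicate 2 in orange. Within a gene the 4 points lie close together compared with the distance from Igfbp2 at 0.13 and 0.15 TPM to Igfbp5 at 100.73 and 95.3 TPM.

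At the ligand and receptor step the insulin receptor dominated. Igf1 (chr10:87858265-87937042, plus strand, mm10), the growth factor made by liver and locally by muscle, was at 4.36 and 3.45 TPM, from 516 and 436 counts. Insr (chr8:3122061-3279617, minus strand) was at 26.87 and 24.39 TPM. Igf1r, the receptor with the higher affinity for IGF1, was at 3.34 and 3.54 TPM. The receptor libraries did not overlap, and Insr held 88.9% and 87.3% of the summed TPM of the pair. Igf2, the related fetal growth factor, was at 7.9 and 6.54 TPM, above Igf1 in both libraries on the TPM scale. Its counts, 453 and 384, were below those of Igf1, so that order rests on the length correction. Igf2r, which clears IGF2 and sorts lysosomal enzymes, was at 18.41 and 16.02 TPM. Insrr, the third member of the receptor family, had 0 counts in either library, which allows up to 3 counts per library.

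The insulin receptor is spliced into isoform A, which lacks a small exon, and isoform B, which holds it. That exon is 36 bases, a whole number of codons, at chr8:3181702-3181737 on the minus strand. The sequence was read from the annotated Insr-203 transcript, with the exon in capitals between 12 bases of each neighbouring exon.
Insr exon: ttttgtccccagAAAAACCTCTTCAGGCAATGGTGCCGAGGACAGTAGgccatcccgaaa
Transcripts holding this exon took 13.9% and 15.8% of the TPM of holding and skipping transcripts together in the RSEM tables, and 16.2% and 19.2% in the kallisto-layout tables. The 4 values fall in a narrow range, but they rest on the annotation: Insr-203 is a 672-base fragment, and the skipping transcript, Insr-201, is 9355 bases long. No reads across splice junctions were counted here, so the share is an assignment of reads to annotated transcripts, not a direct measure of isoforms A and B. A further 26.8% and 23.9% of Insr TPM was assigned to Insr-202, a retained-intron transcript.

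Igf1 transcripts differ at both ends. Those that open with the upstream leader exon, ending at chr10:87859412 and known as class 1, held 84.2% and 80.0% of Igf1 TPM, and 77.6% and 65.3% in the kallisto-layout tables. Class 2 transcripts, whose leader exon ends at chr10:87861385, held the remaining 15.8% and 20.0%. At the other end a 52-base exon, chr10:87915298-87915349, leaves 1 base over after whole codons and so shifts the reading frame of the extension peptide; its inclusion gives the variant called mechano growth factor.
Igf1 exon: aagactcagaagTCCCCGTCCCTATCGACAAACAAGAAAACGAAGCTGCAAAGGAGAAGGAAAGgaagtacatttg
The exon, in capitals, was in 28.4% and 29.6% of the relevant TPM by RSEM. By the kallisto layout it was in 14.6% and 33.3%, so the share is not settled between quantifications at this depth. The transcript carrying it also differed: by RSEM, Igf1-203 held 25.2% and 11.0% of Igf1 TPM, and Igf1-206 held 2.98% and 18.6%.

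Irs1 and Irs2, the adaptors phosphorylated by the receptors, stood at 10.35 and 9.86 TPM and at 6.28 and 5.67 TPM. Irs1 was the higher in both libraries and both tables, with 62.2% and 63.5% of the pair. Irs3 was at 0.36 and 0.21 TPM and Irs4 had 0 counts. Both adaptor genes carry, just upstream of their RefSeq start, the letters of the insulin response element (CAAAACAA, or TTGTTTTG on the other strand), through which Foxo factors are known to act on some insulin-repressed genes. The motif is in capitals in each window (GRCm38.p6).
Irs1, chr1:82291451-82291486, minus strand, 33 bases before the start: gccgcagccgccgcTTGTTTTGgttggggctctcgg
Irs2, chr8:11008946-11008981, minus strand, 38 bases before the start: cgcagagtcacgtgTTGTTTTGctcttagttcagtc
Promoter windows of 250 bases before to 50 bases after the start were found for 33 of the 38 genes. The 2 windows shown are the 2 of the 33 (6.06%) that hold this motif on either strand, against 2.88% of 27025 genes. In Irs2 an E-box, CACGTG, the letters bound by factors such as TFEB, USF and MYC, directly adjoins it, and the E-box was found in 5 of the 33 (15.2%; Eif4e, Igfbp2, Irs1, Irs2 and Rheb) against 8.09% of all genes. Of the other motifs searched on both strands, the Foxo element GTAAACA was in 1 window (Akt1; 4.05% of all genes), TGACGTCA in 0 (2.03%), TATAAA in 4 (12.1% against 15.7%) and GTTTTC in 2 (6.06% against 19.4%). These are matches of letters, with no binding data behind them.

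PI3K pairs a p110 catalytic subunit with a p85 regulatory subunit. Pik3ca, which encodes p110 alpha, the catalytic subunit that carries insulin signals in muscle, was at 18.12 and 14.66 TPM. Pik3cb, for p110 beta, was at 2.97 and 2.55 TPM, and the pair did not overlap. Counting coding transcripts alone widened the gap, since 78.1% and 72.2% of Pik3cb TPM was assigned to Pik3cb-203, which is annotated as a target of nonsense-mediated decay; Pik3ca then held 95.5% and 93.7% of the pair. Pik3cd and Pik3cg, the leukocyte forms, were at 4.7 and 3.83 TPM and at 0.19 and 0.24 TPM. The regulatory genes were closer, with Pik3r1 at 9.48 and 11.59 TPM and Pik3r2 at 7.75 and 7.96 TPM, and Pik3r3 was at 2.7 and 2.47 TPM.

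Pik3r1 gives p85 alpha from its longest transcript and shorter proteins from internal promoters. Pik3r1-202, with 724 codons, held 80.8% and 66.9% of its TPM, and Pik3r1-201, with 454 codons, held 13.9% and 13.7%. In the kallisto-layout tables the long form held 64.6% and 48.6% and the short form 15.7% and 17.7%. The long form was therefore the largest in each library and table, with a share that depended on both.

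Akt2 was the leading Akt gene. Pdpk1, which encodes Pdk1, the kinase that phosphorylates the Akt activation loop, was at 16.28 and 14.39 TPM. Akt1 (chr12:112653821-112674884, minus strand) was at 18.75 and 21.35 TPM. Akt2 (chr7:27591552-27640826, plus strand), the isoform tied to insulin-stimulated glucose uptake, was at 79.28 and 69.78 TPM. Akt2 thus held 80.9% and 76.6% of the pair, and the libraries of the 2 genes were far apart. In the kallisto-layout tables Akt1 was at 27.3 and 28.6 TPM, of which 35.1% and 31.1% was assigned to Akt1-207, a 397-base processed transcript that took 0% and 2.76% in the RSEM tables. The Foxo element noted above lies 161 bases before the RefSeq start of Akt1, in capitals here.
Akt1, chr12:112675025-112675059, minus strand, GRCm38.p6: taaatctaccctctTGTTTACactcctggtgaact

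The TSC complex, the brake on mTOR complex 1 that Akt releases, was well expressed. Tsc1 was at 20.93 and 21.07 TPM, and Tsc2, its catalytic partner, at 33.72 and 31.64 TPM. Rheb, the small GTPase that the complex switches off, was at 30.02 and 25.95 TPM, and Rhebl1 was at 1.27 and 1.01 TPM. Tsc2 exceeded Tsc1 in both libraries on the TPM scale, yet Tsc1 had more counts (3775 and 3836 against 3572 and 3491), which shows how far the order rests on the length correction. Tsc2 shares 693 exon bases with Pkd1 on the opposite strand, at 9.08 and 7.79 TPM. The library kit was directional, but the sources name no strand setting for the counting, and the part of such neighbours was not tested.

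Within the mTOR complexes the kinase outran most of its partners. Mtor was at 15.38 and 14.57 TPM. Rptor, the scaffold of complex 1, was at 11.23 and 8.55 TPM, and Rictor, the scaffold of complex 2, at 4.43 and 4.41 TPM. Mlst8, the subunit shared by both complexes, was at 3.64 and 3.66 TPM, below Rictor in the gene tables but not in replicate 2 of the kallisto-layout tables (3.8 against 3.65 TPM). Deptor, a protein that binds and inhibits mTOR, was at 16.83 and 15.92 TPM, above the kinase in each library of the gene tables and of the kallisto-layout tables (14.4 and 14.4 against 11.1 and 11.1). Only 46.0% and 40.8% of Rptor TPM came from coding transcripts, with 25.5% and 30.8% on retained-intron and 28.5% and 28.4% on decay-class transcripts. On coding transcripts alone, Rptor was at 5.17 and 3.49 TPM and Rictor at 3.2 and 2.84 TPM, so the 2 scaffolds stayed in that order with a smaller gap. Mlst8, at 3.63 and 2.84 TPM on coding transcripts, was not below Rictor.

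The S6 kinase pair changed order with the transcripts counted. Rps6kb1, which encodes S6K1, was at 12.17 and 9.33 TPM over all transcripts and Rps6kb2, for S6K2, at 12.47 and 13.0 TPM. Coding transcripts held 69.3% and 69.8% of Rps6kb1 TPM but 18.1% and 9.08% of Rps6kb2 TPM, where retained-intron transcripts took 39.3% and 41.2% and decay-class transcripts 42.6% and 31.0%. On coding transcripts Rps6kb1 stood at 8.43 and 6.51 TPM and Rps6kb2 at 2.26 and 1.18 TPM, and the kallisto-layout tables gave the same order (8.05 and 7.12 against 3.77 and 3.4 TPM). Rps6kb2 shares 1224 exon bases with Ptprcap and 45 with Coro1b on the opposite strand, Ptprcap at 3 counts in each library and Coro1b at 5.85 and 5.83 TPM. Rps6kb1 shares 155 with Rnft1, which at 19.3 and 18.75 TPM was above Rps6kb1 itself. The lower TPM of Rps6kb1 in replicate 2 was matched only in part by its counts (1025 and 951), while the effective length of the gene, which follows its transcript mix and divides the count, went from 3295 to 3753 bases.

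The cap-binding step held some of the highest levels. Eif4e (chr3:138526179-138559696, plus strand), the cap-binding protein, was at 57.0 and 54.42 TPM. By RSEM, 15.1% and 15.1% of this was assigned to Eif4e-201, which has 4991 bases and 217 codons. Shorter transcripts took most of the rest, with 50.6% and 45.5% on Eif4e-205 (729 bases, 185 codons) and 26.9% and 30.4% on Eif4e-202 (856 bases, 132 codons). The level of Eif4e therefore rests on how reads were assigned to short annotated transcripts. Eif4ebp2 (chr10:61428491-61452661, minus strand), a repressor that mTOR complex 1 inactivates, was at 90.14 and 81.39 TPM. Its paralogue Eif4ebp1 was at 26.07 and 26.28 TPM, so Eif4ebp2 held 77.6% and 75.6% of the pair. The coding share of Eif4ebp1 was only 30.3% and 25.8%, the rest lying on the processed transcript Eif4ebp1-202 (69.7% and 74.2%), and on coding transcripts Eif4ebp2 held 92.0% and 92.3%. Eif4ebp3 was at 2.42 and 1.02 TPM, from 40 and 18 counts.

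**Figure D2:**
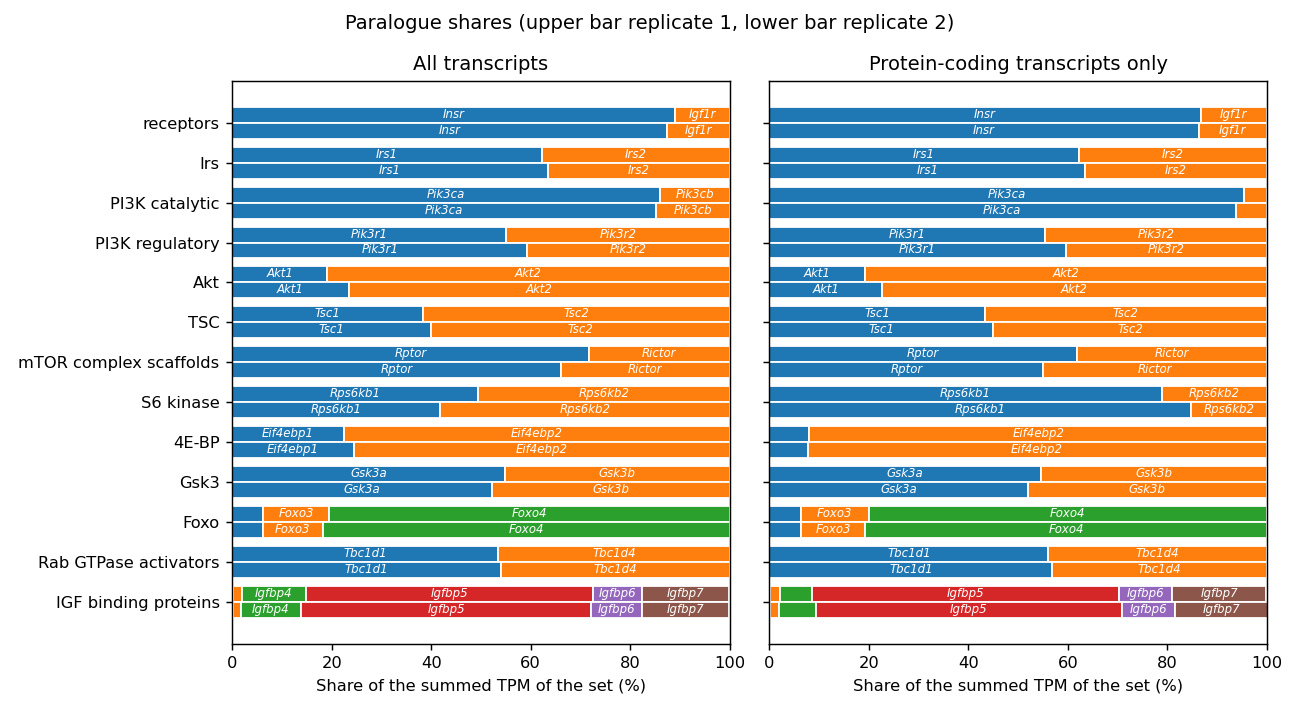
Share of each paralogue in the summed TPM of its set, for all transcripts (left) and protein-coding transcripts alone (right); in each set the upper bar is replicate 1 and the lower bar replicate 2, and each segment is 1 gene. Insr, Pik3ca, Akt2, Eif4ebp2 and Foxo4 held more than 75% of their sets in both panels, and the S6 kinases exchanged places between panels, with Rps6kb2 at 50.6% and 58.2% on the left and 21.1% and 15.3% on the right.

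Gsk3, the kinase that holds glycogen synthase in check until Akt phosphorylates it, came from both genes at similar levels. Gsk3a was at 40.28 and 34.75 TPM and Gsk3b at 33.26 and 31.73 TPM. Gsk3a held 54.8% and 52.3% of the pair in the gene tables and 53.5% and 49.7% in the kallisto-layout tables, so the order is not settled. Gsk3b has a 39-base exon, chr16:38217113-38217151, that adds whole codons to the kinase domain and is best known from the neural form, Gsk3b-202.
Gsk3b exon: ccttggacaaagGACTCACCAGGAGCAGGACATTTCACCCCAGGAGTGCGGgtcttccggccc
The exon in capitals was in 19.3% and 23.6% of the TPM of holding and skipping transcripts by RSEM and 30.1% and 31.7% by the kallisto layout. The form without it was the larger in every library and table.

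Among the Foxo factors, which Akt keeps out of the nucleus, Foxo4 stood far above the others. Foxo1 was at 4.47 and 4.05 TPM. Foxo3, best known in muscle for atrophy genes, was at 9.6 and 7.98 TPM. Foxo4 (chrX:101254528-101260873, plus strand) was at 58.32 and 54.17 TPM, which is 80.6% and 81.8% of the 3 genes. On counts, with no correction for length, Foxo4 still held 64.1% and 65.1%. Foxo6 was at 2.04 and 2.21 TPM.

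The Rab GTPase activators, which hold back GLUT4 vesicles until they are phosphorylated, were close to each other. Tbc1d1 was at 23.3 and 20.63 TPM and Tbc1d4, also called AS160, at 20.35 and 17.48 TPM. Both genes have a long form, known from muscle, that holds a pair of extra exons. In Tbc1d4 these are 165 bases at chr14:101475077-101475241 and 24 bases at chr14:101471428-101471451 on the minus strand, each a whole number of codons and each shown in capitals.
Tbc1d4 first exon: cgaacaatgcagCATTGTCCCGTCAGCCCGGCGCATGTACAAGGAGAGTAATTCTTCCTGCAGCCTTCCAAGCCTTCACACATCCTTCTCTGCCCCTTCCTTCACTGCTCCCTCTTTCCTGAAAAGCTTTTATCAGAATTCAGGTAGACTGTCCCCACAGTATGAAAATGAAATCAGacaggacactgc
Tbc1d4 next exon: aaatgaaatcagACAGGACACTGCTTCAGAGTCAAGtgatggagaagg
Transcripts with this 189-base pair took 67.2% and 78.5% of the TPM of those holding or skipping it by RSEM and 50.4% and 75.5% by the kallisto layout. In Tbc1d1 the pair spans chr5:64283967-64284125 (159 bases) and chr5:64284690-64284809 (120 bases) on the plus strand.
Tbc1d1 first exon: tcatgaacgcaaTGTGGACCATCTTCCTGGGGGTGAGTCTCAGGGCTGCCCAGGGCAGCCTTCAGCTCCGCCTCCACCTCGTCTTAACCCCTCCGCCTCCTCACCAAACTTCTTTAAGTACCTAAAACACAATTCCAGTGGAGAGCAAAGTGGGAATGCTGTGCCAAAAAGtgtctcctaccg
Tbc1d1 next exon: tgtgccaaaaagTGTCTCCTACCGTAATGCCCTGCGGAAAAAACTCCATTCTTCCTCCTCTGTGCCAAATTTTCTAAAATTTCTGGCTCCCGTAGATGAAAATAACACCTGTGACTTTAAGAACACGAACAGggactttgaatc
Its inclusion was 77.7% and 84.8% by RSEM and 59.1% and 60.3% by the kallisto layout. For both genes the transcripts with the extra exons summed to more than those without in each library and table, by margins that differed between quantifications. For Tbc1d4 the kallisto layout gave 6.92 against 6.83 TPM in replicate 1. The holding sum also rested on Tbc1d4-201, a 3249-base transcript at 6.42 and 5.61 TPM by RSEM. Between the coding transcripts of most codons the order differed between libraries. By RSEM, Tbc1d4-210 (1306 codons, with the pair) was at 2.54 and 3.24 TPM and Tbc1d4-209 (1243 codons, without it) at 3.58 and 2.09 TPM.

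**Figure D3:**
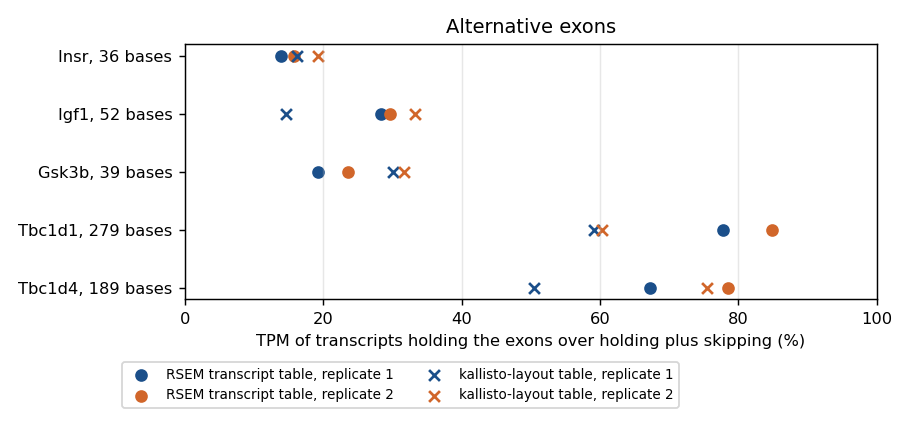
Inclusion of 5 alternative exons or exon pairs, as the TPM of annotated transcripts holding them over that of transcripts holding or skipping them, in percent; circles are RSEM transcript tables and crosses kallisto-layout tables, blue for replicate 1 and orange for replicate 2. The Insr exon lies between 13.9% and 19.2%, while the Tbc1d1 and Tbc1d4 pairs lie above 50%.

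The IGF binding proteins, secreted carriers that limit or prolong IGF action, summed to 175 and 163 TPM (169 ± 8.2). Igfbp5 (chr1:72857932-72874884, minus strand), the binding protein long associated with muscle, was at 100.73 and 95.3 TPM, the highest of all 38 genes, with 57.6% and 58.4% of the 6. Igfbp7, a low-affinity member of the family, was at 30.83 and 28.77 TPM. Igfbp4 was at 22.56 and 19.58 TPM and Igfbp6, which prefers IGF2, at 17.24 and 16.52 TPM. Igfbp3, the main carrier in blood, was at 3.28 and 2.79 TPM, and Igfbp2 had 3 and 5 counts; Igfbp1, a liver product, had 0 counts. These carriers come from several cell types. Over the marker lists the median log2 ratio of replicate 2 to replicate 1 ran from -0.42 (endothelial) to 0.19 (tenocyte). It was -0.38 for adipocyte, -0.2 for smooth muscle and pericyte, 0.07 for fibroblast and 0.09 for fibre markers. Beside these, Igfbp3 and Igfbp4 were at -0.08, Igfbp7 at 0.04, Igfbp5 at 0.06 and Igfbp6 at 0.08. The part of these cells in the Igfbp levels was not tested. Of Igfbp4 TPM, 53.9% and 41.1% was assigned to processed transcripts. Of the 4 genes with TATAAA on either strand, 3 held it upstream as the reverse complement TTTATA. These were Pik3r1 and Gsk3b, 117 bases before the start, and Igfbp6, 148 bases before it. Igfbp4 alone held TATAAA upstream on its own strand, 28 bases before the start, shown in capitals.
Igfbp4, chr11:99041202-99041235, plus strand, GRCm38.p6: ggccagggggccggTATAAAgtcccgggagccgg

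Across the chain, the median gene had 96.5% and 93.2% of its TPM on coding transcripts, against 95.2% and 95.2% over the 10068 expressed protein-coding genes. Coding transcripts held the smaller part in 5 of 37 genes in replicate 1 (13.5%, against 7.44% of all) and in 4 of 37 in replicate 2 (10.8% against 7.89%). These were Pik3cb, Rptor, Rps6kb2 and Eif4ebp1 in both libraries, with Igfbp4 in replicate 1. In the kallisto-layout tables Igfbp4 was under 50% in both libraries (38.8% and 42.5%), and Rptor was at 48.0% and 55.1%. Transcript labels come from the annotation, and reads shared by overlapping transcripts are divided by the quantification.

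**Figure D4:**
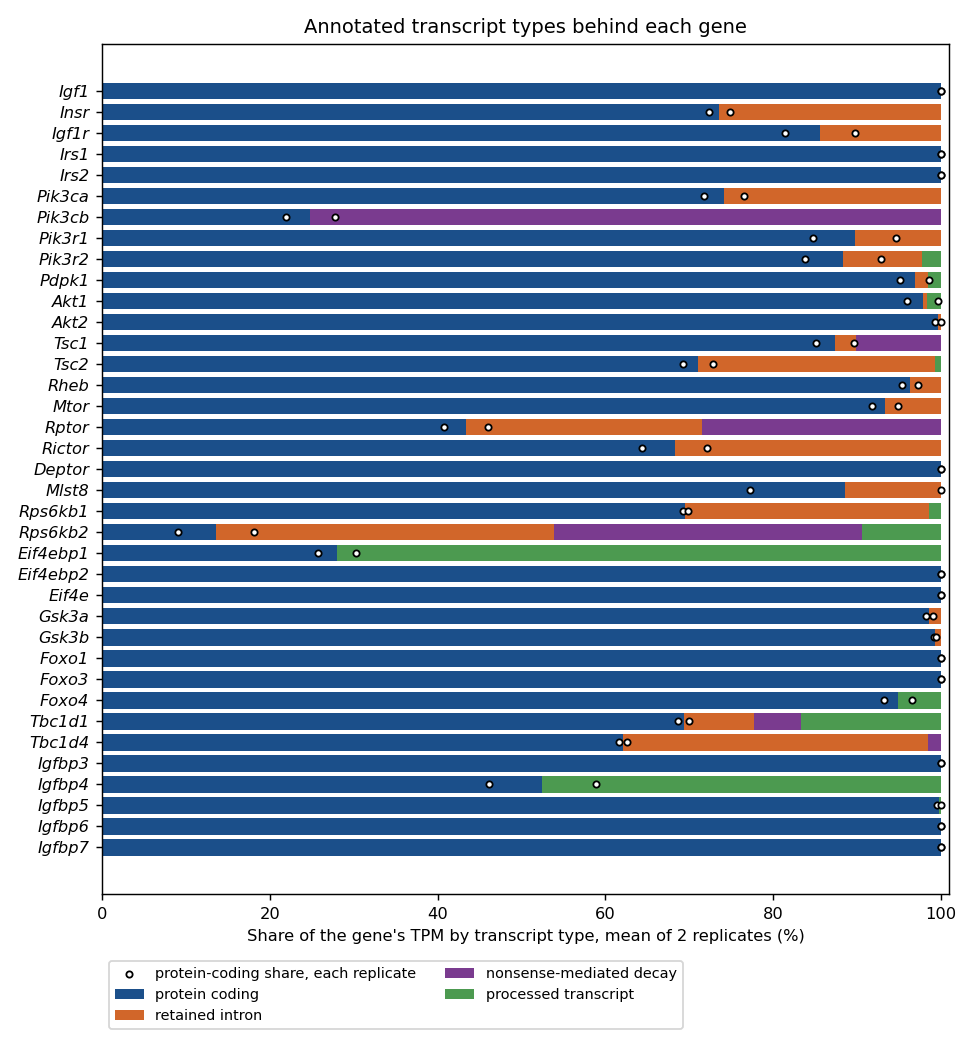
Share of each gene's TPM on protein-coding, retained-intron, nonsense-mediated decay and processed transcripts, in percent, as stacked bars of the mean of both replicates; white points give the coding share in each replicate, and Igfbp2 is left out for its 3 and 5 counts. Pik3cb, Rptor, Rps6kb2 and Eif4ebp1 are the genes with both points left of 50%.

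The libraries lay about as close together on this chain as over all genes tested. Replicate 2 was set against replicate 1 on counts scaled by TMM, with a ratio of at least 1.5-fold as the mark and a mean count of at least 100, which left out Igfbp2. Of the 37 genes 0 passed, where 1.22% of 9741 genes did. One library on each side allows no test. The median absolute log2 ratio was 0.07 for the chain and 0.09 for all genes tested, whose central 95% ran from -0.39 to 0.36. Intervals from counting error alone lay above 0 for 4 genes (12.4% of all genes did), Akt1 at 0.25, Pik3r1 at 0.20, Tsc1 at 0.07 and Igfbp5 at 0.06, and below 0 for 3 genes (11.9% of all), Rptor at -0.27, Pik3ca at -0.25 and Igf1 at -0.19. These counts are near the background. Directions depended on scaling: 18 genes lay above 0 and 19 below with TMM (50.7% and 49.3% of all genes), but 9 and 28 with library totals and 32 and 5 with spike-in totals, which move the median of all genes to -0.06 and 0.09.

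**Figure D5:**
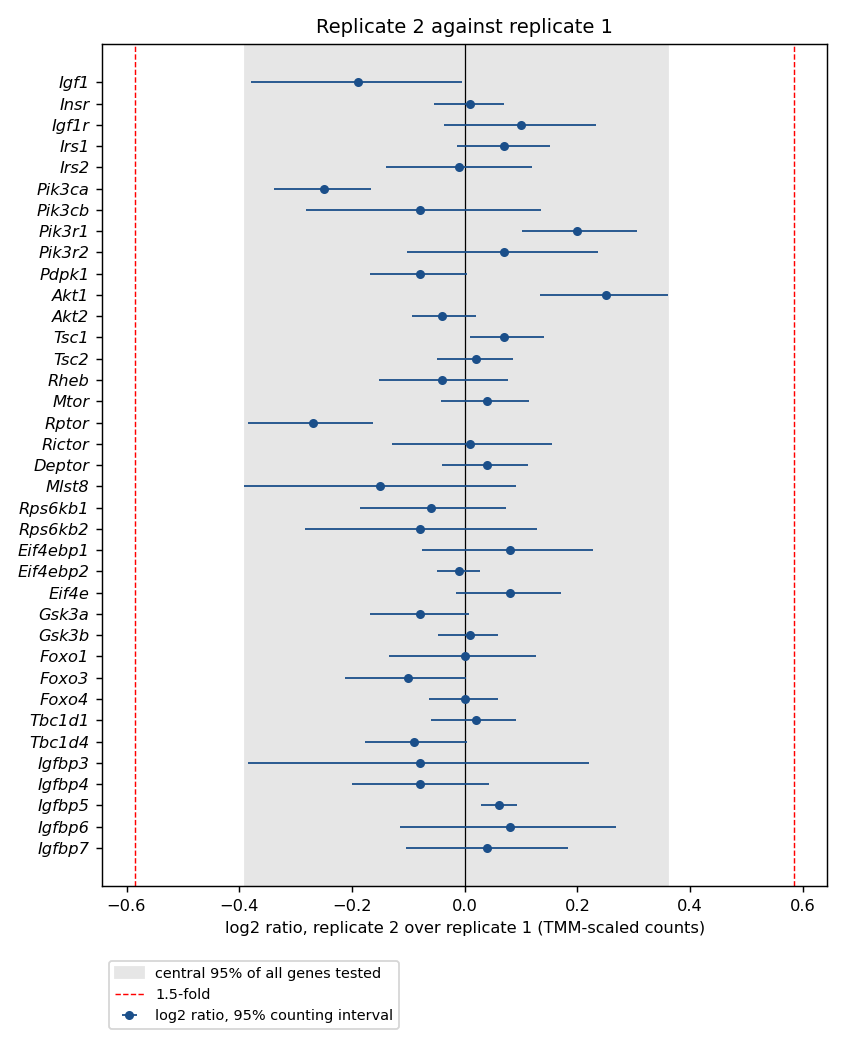
Log2 ratio of replicate 2 to replicate 1 for the 37 genes averaging 100 counts or more, with 95% counting intervals; the grey band is the central 95% of all genes tested, -0.39 to 0.36, and dashed lines mark 1.5-fold. All 37 points lie inside the band.

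Other genes of the pathway filled in the chain around these members. All 111 listed were found, and 93 reached 1 TPM in both libraries, where 10068 of 22015 nuclear protein-coding genes did. Of the 87 with enough counts, 0 differed by 1.5-fold in either direction between libraries, a count near the 1.22% of all genes tested. Among adaptors and brakes Grb2 was highest (34.5 and 31.08 TPM), and among phosphatases Inppl1, which encodes SHIP2, a lipid phosphatase that opposes PI3K (46.19 and 43.73 TPM). Of the other kinases near Akt, Sgk1 was highest at 78.44 and 59.32 TPM, and Tcl1, an Akt coactivator of lymphocytes, had 0 counts. The complex 1 subunit gene Akt1s1, for PRAS40, stood at 62.24 and 61.45 TPM, above every mTOR complex gene among the 38, whereas Prr5l, a partner of complex 2, was at 0.07 and 0.1 TPM.

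The lists of outputs stood higher than the list of inputs: the median was 10.2 and 10.8 TPM for the amino acid and stress inputs, 45.9 and 44.7 TPM for the other mTORC1 outputs, 106 and 94.4 TPM for glucose handling and 46.7 and 41.6 TPM for the Foxo outputs. Ddit4l, an inhibitor of mTOR complex 1 known from muscle, was highest of the amino acid and stress inputs at 125.22 and 110.79 TPM, and Sesn2 lowest at 1.1 and 0.92 TPM. Eif4g2 led the mTORC1 outputs at 304.66 and 279.42 TPM. Slc2a4, the insulin-regulated glucose transporter GLUT4, was at 183.69 and 166.5 TPM, and Slc2a1, the GLUT1 gene, at 2.53 and 2.09 TPM. Bnip3, a mitophagy receptor, had the highest mean of the Foxo outputs in the gene tables, at 106.12 and 85.35 TPM; in the kallisto-layout tables it was at 91.9 and 73.2 TPM, below Map1lc3b, an autophagosome protein, at 101 and 96.9 TPM and Fbxo32, the atrogin-1 gene, at 92.6 and 78.2 TPM. Over all lists, 44 of the 87 genes with enough counts lay above 0 and 43 below in replicate 2 (50.7% and 49.3% of all genes). Counting intervals lay above 0 for 15 and below 0 for 18 (12.4% and 11.9% of all). Below 0 lay 7 of 10 Foxo outputs (median log2 ratio -0.09, 5 intervals below 0) and 7 of 9 glucose handling genes (-0.02, 2 intervals). Above 0 lay 9 of 13 other mTORC1 outputs. Such intervals narrow as counts rise, so they can leave out 0 at small ratios. Foxo1, Foxo3 and Foxo4 themselves were at 0.00, -0.10 and 0.00. Differences between lists were not tested.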

How the data were processed

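Gastrocnemius RNA of 2 libraries was analysed. Per the labels, 300 ng of RNA entered a directional library kit with ERCC spike-in. Per the files' notes, the authors quantified each library alone on mm10 with GENCODE M21; aligner and versions: not given in the sources used here. Gene and RSEM transcript tables carry, per the file headers, expected counts, TPM and the posterior SD of the count. Among the genes of the signalling chain with over 10 counts, this SD was at most 1.06% of the count. The deposited kallisto-layout tables hold estimated counts and TPM per transcript, which were summed per gene, with 86 genes lacking an entry taken as 0. Rows without an annotated gene (0.527% and 0.474% of counts) were left out.

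Levels and shares use deposited TPM. Ratios use expected counts, edgeR 4.0.16 TMM factors over genes averaging 10 counts or more and a prior of 0.5 counts. Counts were rounded to whole numbers for the factors and for the exact binomial 95% intervals, which cover counting error only. Inclusion is the TPM of transcripts holding an exon over that of transcripts holding or skipping it. Exons come from GENCODE M21 transcripts, promoters from RefSeq (GRCm38.p6). The ratio step was tested on simulated counts that held counting error alone, so that test does not cover other spread between libraries.

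The genes and lists were chosen with earlier results of these data known. All 38 genes are named, transcripts at 10% or more of genes with known alternative forms, and the highest and lowest gene of each further list with the other paralogues, of which 1 is not reported here; transcripts of Pik3cb, Eif4ebp1, Rptor, Rps6kb2, Akt1 and Igfbp4 were picked with their values in view, as were the printed exons and promoter motifs. Alternatives were DESeq2 1.42.0 size factors, library and spike-in totals, deposited TPM with a pseudocount of 0.1, other count minimums, folds and priors, the kallisto-layout table, counts in place of TPM, and each library alone. Tools were Python 3.11.15 with matplotlib 3.10.9, scipy 1.17.1, pandas 2.3.3 and numpy 2.4.6, and R 4.3.3.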

Additional observations from a re-analysis of the deposited data

How the results depend on the processing

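No paired analysis was possible because the series holds a single group. Each library alone gave levels and shares within 1 SD of the mean, which any pair of values does by construction. With TPM rescaled over nuclear protein-coding genes alone, the median of the chain was 36.0. The leading paralogue's share of TPM in the kallisto-layout tables was 84.7% for Insr, 83.3% for Pik3ca, 62.6% for Pik3r1, 74.7% for Akt2, 69.6% for Eif4ebp2, 51.6% for Gsk3a, 79.4% for Foxo4 and 56.9% for Igfbp5. As a share of expected counts, with no length correction, it was 82.5% for Insr, 71.1% for Irs1, 85.0% for Pik3ca, 73.2% for Pik3r1, 48.1% for Tsc2, 61.9% for Rptor, 28.3% for Rps6kb2, 94.0% for Eif4ebp2, 26.8% for Gsk3a, 64.6% for Foxo4, 58.4% for Tbc1d1 and 85.7% for Igfbp5, so Tsc2, Rps6kb2 and Gsk3a no longer led. On coding transcripts only, an alternative chosen after seeing the data, it was 86.5% for Insr, 94.6% for Pik3ca, 55.9% for Tsc2, 58.5% for Rptor, 18.2% for Rps6kb2, 92.2% for Eif4ebp2, 56.5% for Tbc1d1 and 61.6% for Igfbp5. In the kallisto-layout tables the mean inclusion was 17.7% for the Insr exon, 23.9% for the Igf1 exon, 30.9% for the Gsk3b exon, 59.7% for the Tbc1d1 pair and 63.0% for the Tbc1d4 pair, Pik3r1-202 held 56.6% and Eif4ebp1-202 held 80.5%. With no filter on counts, 1 gene, Igfbp2, passed 1.5-fold, from 3 and 5 counts; the other settings left the number at 0. The log2 ratio of Igfbp5 went from 0.06 to -0.00097 with library totals and -0.08 with deposited TPM. These settings moved the median of all genes tested to -0.06 and -0.13. Genes of the chain above 0 went from 18 with TMM to 9 and 8. Library totals change only the scaling constant that all genes share. Deposited TPM also corrects for length, and the part of that was not tested. No biological spread can be estimated beyond these 2 libraries, and genes of few counts, such as Igf1, give wide transcript shares.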
